A study of Mus musculus with 9 samples.

Results

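The genes described here are 8 CC chemokines, Ccl2, Ccl3, Ccl4, Ccl5, Ccl6, Ccl7, Ccl9 and Ccl22, and 2 receptors of that system, Ccr1 and Ccrl2. They were chosen by gene name among the non-control probes of the scanner files. They are 10 of 34797 distinct gene names in the deposited value table. CC chemokines are small secreted proteins that draw leukocytes toward their source by binding receptors coupled to G proteins. Ccl3, Ccl4, Ccl5, Ccl6 and Ccl9 are secreted by myeloid cells and attract other leukocytes, and Ccr1 is the receptor of several of them. In inflamed skin, chemokines from infiltrating and resident cells shape which leukocytes arrive.

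Neutrophils were sorted by flow cytometry, on bright staining for Gr-1 and to high purity by the labels, from mice of the FVB/N strain in a model of skin carcinogenesis. The carcinogen DMBA was given at 6 and 13 weeks of age and the tumor promoter PMA was given repeatedly from week 1 to week 18 to 20, in every group. The 4 groups were papilloma skin, which is the skin around benign papillomas (2 arrays), tumor skin, which is the skin around malignant tumors (2 arrays), papilloma (3 arrays) and tumor (2 arrays). Cells of several mice were pooled for each one-colour array, so arrays are the replicates here, their small number limits the precision, and the spread between arrays is not the spread between mice. Every skin sample came from treated mice that bore lesions, and no untreated skin was measured.

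Each of the 10 genes was measured by 1 probe, and the Ccl2 probe was spotted 10 times on each array. Values are log2 levels from the deposited table, and since probes differ in how strongly they bind, levels of different probes do not compare amounts of RNA. Of the 10 genes, 9 were well above background on 9 of 9 arrays. Ccl22 passed that background test on 4 arrays (tumor 1, papilloma 3 and the replicates numbered 1 of both skins), and its mean log2 level was 5.16.

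Some arrays and columns stood apart from the rest. The share of spots well above background was 44.2% to 64.2% on 6 of the arrays, but 95.0% for papilloma skin 1, 94.3% for tumor 1 and 90.7% for tumor skin 1. The slope of the spike-in controls, RNA added in known amounts, lay between 1.04 and 1.06 on those 6 arrays, while papilloma skin 1 had 0.678, tumor skin 1 had 0.876 and tumor 1 had 0.894. Over 55155 probes, the deposited column papilloma skin 1 had a rank correlation of 0.588 with its own scanner file and 0.924 with that of tumor 2. It was nearly as close to the file of papilloma skin 2, at 0.918. The file of papilloma skin 1 had low values with every column, from 0.439 to 0.783. Whether the column or the file is at fault was not tested. For the column tumor 1 the values were 0.827 with its own file and 0.947 with that of tumor 2. The columns papilloma 2 and papilloma 3 were each closest to the other's file, at 0.981 against 0.936 and 0.959 against 0.940, which are 2 arrays of 1 group. For the 10 genes, results are therefore also given without the columns papilloma skin 1 and tumor 1. Values of other named genes and lists are given from the full value table only. A further fit for the 10 genes used the scanner files, quantile normalized and corrected for slide by ComBat. That fit does not count the degrees of freedom spent on slides, and when slide was instead a term of the fit on the scanner files, limma called 0.00% of all 55155 probes in either lesion, and so none of the 10 genes. The same share, 0.00%, was called on the 6 arrays with spike-in slopes of 1.04 to 1.06, where papilloma skin, tumor skin and tumor keep 1 array each, so the loss of calls in these settings is one of the whole array.

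The arrays lay on 3 slides. All arrays numbered 1 shared slide 1. Those numbered 2 shared slide 2, except tumor skin 2, which was on slide 3 with papilloma 3. Papilloma could be set against papilloma skin within slides 1 and 2, and tumor against tumor skin within slide 1 only. These are the slides of the scanner files. Each such pair of deposited columns holds one whose closest file is from another slide (papilloma skin 1 and tumor 1 on slide 1, papilloma 2 on slide 2), so it is in doubt whether value-table differences by slide label are within a slide.

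The labelled cell type was checked against markers. All 15 probes of 14 neutrophil markers, among them Ly6g, Csf3r and Cxcr2, were well above background on 9 of 9 arrays, and the strongest probe signal of the list was that of S100a9. The log2 of their summed level was 20.24 and 20.30 in papilloma skin, 20.52 and 20.48 in tumor skin, 20.01, 20.02 and 20.00 in papilloma, and 20.19 and 20.09 in tumor. Markers of other cells were measured too, and their values stand beside the chemokines further on.

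The first question was which of these genes differ between neutrophils in a papilloma and neutrophils in the skin around it. In the papilloma the chemokines Ccl3 and Ccl4 and the receptor Ccrl2 were higher, and the chemokines Ccl6 and Ccl9 were lower. A gene was called when limma gave an adjusted p of 0.05 or less over all probes, with a log2 fold change of 1 or more in size and an average log2 level of 6 or more. By that rule 3 of the 10 genes rose, beside 2.18% of all probes on the array, and 2 fell, beside 1.00% of all probes. The median log2 fold change was -0.46 over the 10 genes and -0.01 over all probes. Unadjusted p was under 0.05 for 7 of the 10 genes and for 20.7% of all probes.

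In tumors set against the skin around them, Ccl3 and Ccl4 were again higher and Ccl6 and Ccl9 lower. Here 2 of the 10 genes rose, beside 2.71% of all probes, and 2 fell, beside 1.51%. The median log2 fold change was 0.37 over the 10 genes and -0.02 over all probes, and 6 of the 10 genes had an unadjusted p under 0.05, beside 26.9% of all probes. With papilloma and tumor joined and set against both skin groups, 2 of the 10 genes rose, beside 2.29% of all probes, and 2 fell, beside 1.33%. The joined comparison uses the same arrays as the separate ones.

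**Figure D1:**
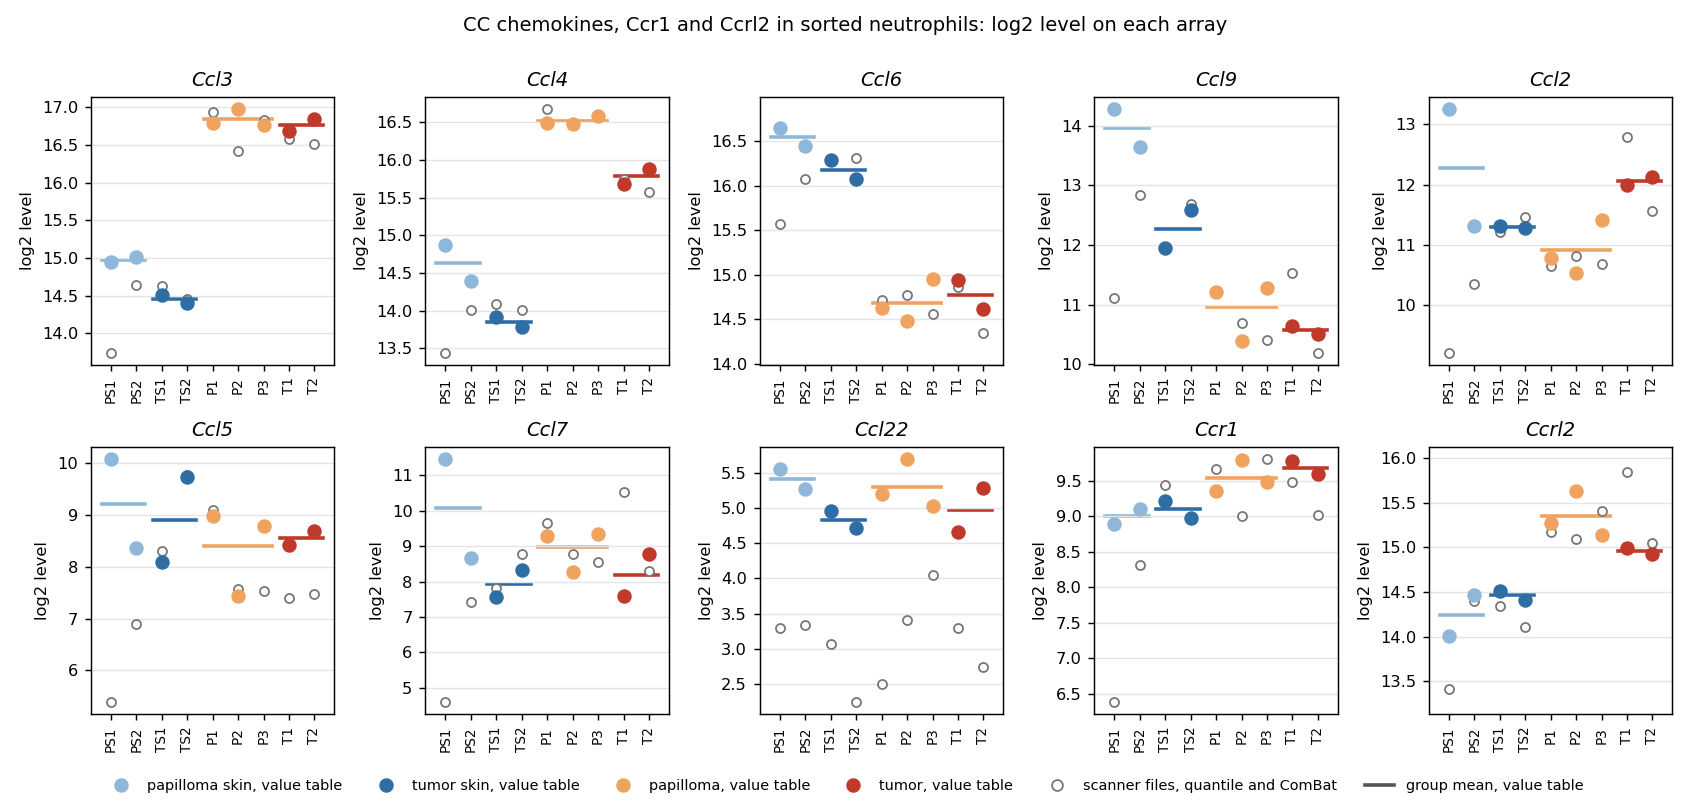
Log2 level of each of the 10 genes (vertical axis) on each of the 9 arrays (horizontal axis: PS papilloma skin, TS tumor skin, P papilloma, T tumor), with filled points and group means from the value table and open points from the scanner files. In the value table the 5 lesion columns of Ccl3 lie between 16.68 and 16.98 and the 4 skin columns between 14.41 and 15.01, while open points of papilloma skin 1 lie under the filled ones for each of the 10 genes.

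Ccl3, also called macrophage inflammatory protein 1-alpha, is a ligand of Ccr1. Its log2 level was 14.94 and 15.01 in papilloma skin, 14.51 and 14.41 in tumor skin, 16.79, 16.98 and 16.76 in papilloma, and 16.68 and 16.84 in tumor. Every lesion column lay above every skin column, and papilloma and tumor overlapped. Papilloma averaged 16.84 ± 0.12 (SD, n = 3) and papilloma skin 14.98 ± 0.05 (SD, n = 2), while tumor averaged 16.76 ± 0.11 (SD, n = 2) and tumor skin 14.46 ± 0.07 (SD, n = 2). Ccl3 rose in papilloma by 1.87 on the log2 scale (SE 0.13, adjusted p = 0.000311), a fold of 3.65. It rose in tumor by 2.30 (SE 0.14, adjusted p = 0.000482), a fold of 4.94. These p-values measure the spread between arrays in a fit without a slide term. With slide as a term on the value table, limma gave Ccl3 an adjusted p of 0.00845 in papilloma and 0.0251 in tumor, called in both. Fewer cells of a type and less RNA per cell cannot be told apart in sorted bulk samples, for Ccl3 and for each gene that follows.

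By slide label, the Ccl3 columns of papilloma exceeded those of papilloma skin by 1.85 on slide 1 and 1.97 on slide 2, and tumor exceeded tumor skin by 2.17 on slide 1, on the log2 scale. From the scanner files the same differences, there within slides, were 3.19, 1.78 and 1.95. Without the columns papilloma skin 1 and tumor 1 Ccl3 was called in both lesions, with log2 fold changes of 1.83 and 2.38. The scanner files gave 2.54 (SE 0.34, adjusted p = 0.00803) in papilloma, which was called, and 2.01 (SE 0.37, adjusted p = 0.0758) in tumor, which was not. With slide as a term on those files the value in papilloma was 2.52 (adjusted p = 0.359), not called. Over 22 alternative settings and left-out arrays the adjusted p of Ccl3 ran from 0.00023 to 0.408 in papilloma and from 0.000344 to 1.00 in tumor.

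Ccl4, or macrophage inflammatory protein 1-beta, attracts monocytes and T cells. It had log2 levels of 14.87 and 14.39 in papilloma skin, 13.92 and 13.79 in tumor skin, 16.49, 16.47 and 16.58 in papilloma, and 15.68 and 15.88 in tumor. The 4 groups did not overlap in the value table, in the rising order tumor skin, papilloma skin, tumor, papilloma. Ccl4 rose in papilloma by 1.88 (SE 0.17, adjusted p = 0.000816), a fold of 3.69, and in tumor by 1.93 (SE 0.18, adjusted p = 0.00163), a fold of 3.81. By slide label the differences were 1.62 and 2.08 for papilloma and 1.76 for tumor, and within slides of the scanner files 3.22, 2.45 and 1.65. With papilloma skin 1 and tumor 1 left out they were 2.12 and 2.03, and Ccl4 was called in both lesions. From the scanner files Ccl4 rose by 2.84 (SE 0.27, adjusted p = 0.00513) in papilloma and had a value of 1.61 (SE 0.30, adjusted p = 0.0786) in tumor, which was not called. In papilloma slide as a term on those files gave 2.85 (adjusted p = 0.343), not called. Its adjusted p ran from 0.00067 to 0.408 in papilloma and from 0.00138 to 1.00 in tumor over the 22 alternatives.

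Ccl6, a chemokine of mice that binds Ccr1, went the other way. Its log2 level was 16.64 and 16.44 in papilloma skin, 16.28 and 16.07 in tumor skin, 14.63, 14.48 and 14.95 in papilloma, and 14.94 and 14.61 in tumor. Every lesion column lay under every skin column, papilloma skin lay above tumor skin in the value table, and papilloma and tumor overlapped. Papilloma averaged 14.69 ± 0.24 (SD, n = 3) and papilloma skin 16.54 ± 0.14 (SD, n = 2), while tumor averaged 14.78 ± 0.23 (SD, n = 2) and tumor skin 16.18 ± 0.15 (SD, n = 2). Ccl6 fell in papilloma by 1.86 (SE 0.18, adjusted p = 0.0013), 3.62 times lower, and in tumor by 1.40 (SE 0.20, adjusted p = 0.00671), 2.64 times lower.

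By slide label the differences of Ccl6 were -2.01 and -1.97 for papilloma and -1.35 for tumor, and within slides of the scanner files -0.85, -1.31 and -1.41. Without papilloma skin 1 and tumor 1 Ccl6 was called in both lesions, at -1.76 and -1.56. Without tumor 2 its value in tumor was -1.24, and with slide as a term also -1.24, and neither was called. The scanner files gave a fall of 1.14 (SE 0.29, adjusted p = 0.0402) in papilloma and a value of -1.69 (SE 0.32, adjusted p = 0.08) in tumor, not called. In papilloma those files gave -1.11 (adjusted p = 0.436) with slide as a term and -1.78 (SE 0.41) on the 6 arrays, not called. From the scanner files tumor skin, at 16.28 and 16.32, lay above papilloma skin, at 15.57 and 16.08, so the order of the skins turned with the source. Over the 22 alternatives the value of Ccl6 in papilloma ran from -1.99 to -0.18. Its adjusted p ran from 0.000867 to 0.914 in papilloma and from 0.00609 to 1.00 in tumor.

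Ccl9, or macrophage inflammatory protein 1-gamma, is a further Ccr1 ligand of mice. It had log2 levels of 14.27 and 13.64 in papilloma skin, 11.95 and 12.58 in tumor skin, 11.21, 10.40 and 11.28 in papilloma, and 10.64 and 10.51 in tumor. Every lesion column lay under every skin column, and tumor skin lay between papilloma skin and the lesions. Ccl9 in papilloma fell by 2.997 (SE 0.32, adjusted p = 0.00182), 7.98 times lower, and in tumor by 1.68 (SE 0.35, adjusted p = 0.0243), 3.21 times lower. The effect in tumor minus the effect in papilloma was 1.31 (SE 0.47, adjusted p = 0.273), so a difference between the lesion effects was not called. The scanner files gave -0.26 (SE 0.90) for it, and 0.10 (SE 0.58) on the 6 arrays, so it depended on the source.

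The SD of Ccl9 was 0.45 in papilloma skin and 0.45 in tumor skin (n = 2 each), 0.49 in papilloma (n = 3) and 0.09 in tumor (n = 2). By slide label its differences were -3.06 and -3.25 for papilloma and -1.31 for tumor in the value table. From the scanner files they were 0.11, -2.15 and -0.43, so that slide 1 showed no fall in papilloma there. The scanner files gave -1.20 (SE 0.61, adjusted p = 0.169) in papilloma and -1.46 (SE 0.67, adjusted p = 0.342) in tumor, and neither was called. On the 6 arrays with spike-in slopes of 1.04 to 1.06 they gave values further from 0, -2.65 (SE 0.37, adjusted p = 0.149) and -2.55 (SE 0.45, adjusted p = 0.194), where no probe of the array was called. Without papilloma skin 1 and tumor 1 Ccl9 was called in papilloma at -2.68 and not called in tumor at -1.75. In tumor it was also not called without tumor 1 (-1.75), tumor 2 (-1.62) or tumor skin 2 (-1.37), with slide as a term (-1.24), or with a block of replicate numbers (-1.68, adjusted p = 0.0839). Its adjusted p over the 22 alternatives ran from 0.0016 to 0.831 in papilloma and from 0.0166 to 1.00 in tumor.

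Ccl3, Ccl4, Ccl6 and Ccl9 lie near each other on chromosome 11 with Ccl5. In the mm9 build the Ccl9 probe maps to chr11:83388223-83388282, that of Ccl6 to chr11:83401997-83402056, that of Ccl3 to chr11:83461358-83461417 and that of Ccl4 to chr11:83478052-83478111. Ccl9 and Ccl6 were 13.8 kb apart by their probes, Ccl6 and Ccl3 59.4 kb, and Ccl3 and Ccl4 16.7 kb. Along 89.8 kb, the neighbours Ccl9 and Ccl6 were thus lower in lesions and the neighbours Ccl3 and Ccl4 higher. Ccl2 and Ccl7 lie 10.01 kb apart in another stretch of the chromosome, 1479 kb before Ccl5. The remaining genes are elsewhere, with the probe of Ccl22 at chr8:97274709-97274768, that of Ccrl2 at chr9:110957397-110957456 and that of Ccr1 at chr9:123877790-123877849.

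Genes between or beside the members were looked up after their values were seen. E230016K23Rik, between Ccl9 and Ccl6, had log2 fold changes of 0.28 and 0.42 in papilloma and tumor and a mean level under 6. Beside Ccl2 and Ccl7 lie Ccl11, Ccl12, Ccl8 and Ccl1. None of the 7 probes from Ccl2 to Ccl1 was called by limma in either lesion. Unadjusted p was under 0.05 for 2 in papilloma, beside 20.7% of all probes, and for 1 in tumor, beside 26.9%. The lowest adjusted p was 0.025 for Ccl11 in tumor, at -0.73.

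**Figure D2:**
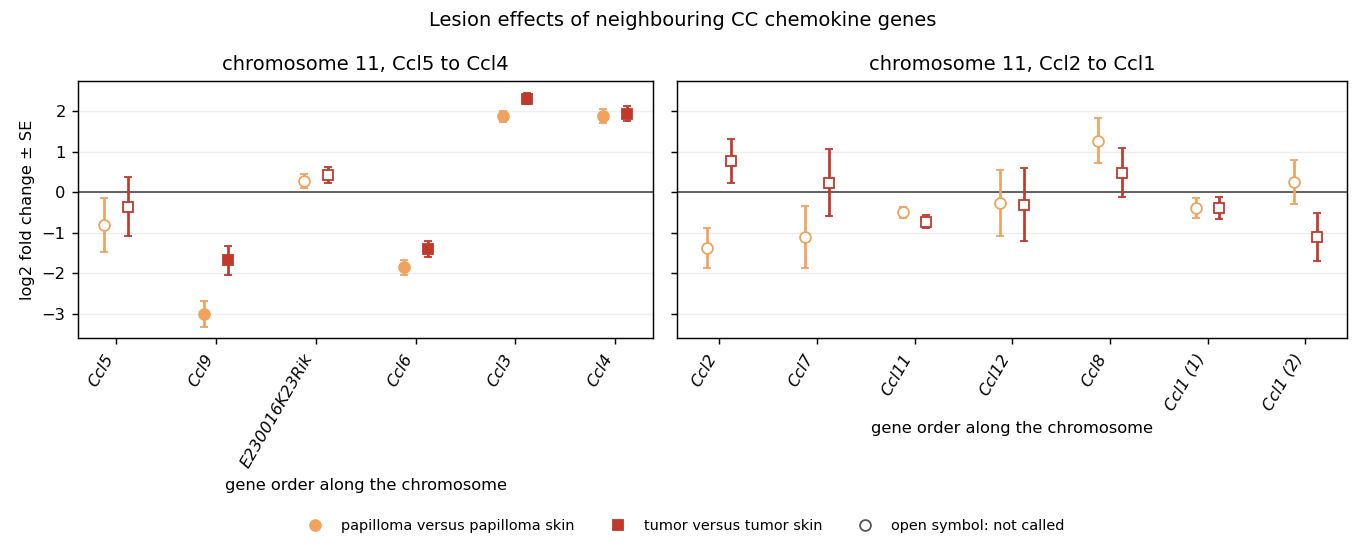
Log2 fold change ± SE (vertical axis) of neighbouring CC chemokine probes in gene order along chromosome 11 (horizontal axis, not to scale), with circles for papilloma against papilloma skin, squares for tumor against tumor skin, and filled symbols for called genes. Ccl9 and Ccl6 lie under 0, at -2.997 and -1.86 in papilloma, and Ccl3 and Ccl4 above it, at 1.87 and 1.88.

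Promoter windows were compared because Ccl6 and Ccl9 moved together, and their matched stretches are shown to let a reader see how alike they are. Windows of GRCm38.p6 by RefSeq, each of 250 bases before to 50 bases after a transcription start, were at hand for 6 of the 10 genes. The set of windows used here held none for Ccl2, Ccl4, Ccl5 or Ccl7. Among the pairs of these 6 genes, the best local alignment of Ccl6 with Ccl9 scored 38, with 58 identical bases, 9 mismatches and 7 gap bases, and the 14 other pairs scored 8 to 12 with 10 to 22 identical bases. The stretches printed here are the upstream part of that alignment, on the minus strand, with capitals for bases identical in it. That of Ccl6 is chr11:83593092-83593146, from base -59 to -5, and that of Ccl9 is chr11:83578607-83578654, from base -18 to 30, where negative positions lie before the start.
Ccl6: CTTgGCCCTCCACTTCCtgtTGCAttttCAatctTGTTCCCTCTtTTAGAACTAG
Ccl9: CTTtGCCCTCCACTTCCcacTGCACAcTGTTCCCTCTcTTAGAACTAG
In these stretches 42 bases of Ccl6 and 42 of Ccl9 were identical in the alignment. The printed stretch lies before the start of Ccl6 and across the start of Ccl9, and the whole alignment crosses both starts, from -59 to 15 in Ccl6 and from -18 to 49 in Ccl9.

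The last 100 bases before the start are shown for Ccl3, Ccl9, Ccr1 and Ccrl2, because Ccl3 rose in both lesions and the other 3 genes hold a motif match. Capitals mark a match of the 10-base kappaB consensus or of TATAAA on either strand, and all 4 stretches are on the minus strand of GRCm38.p6. They are chr11:83649379-83649478 for Ccl3, chr11:83578637-83578736 for Ccl9, chr9:123968693-123968792 for Ccr1 and chr9:111057519-111057618 for Ccrl2.
Ccl3: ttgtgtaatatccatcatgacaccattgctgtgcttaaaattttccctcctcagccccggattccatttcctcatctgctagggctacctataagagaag
Ccl9: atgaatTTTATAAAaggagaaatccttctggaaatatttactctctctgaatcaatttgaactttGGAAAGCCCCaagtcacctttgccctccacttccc
Ccr1: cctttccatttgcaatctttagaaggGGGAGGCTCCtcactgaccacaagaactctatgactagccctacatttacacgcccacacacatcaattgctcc
Ccrl2: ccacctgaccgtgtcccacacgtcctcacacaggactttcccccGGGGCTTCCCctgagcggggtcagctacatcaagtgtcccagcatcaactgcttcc
The kappaB consensus was found in 3 of the 6 genes and in 3 of their 8 windows, beside 8.46% of all 32851 windows. It lay in Ccl9 at -35 to -26, in Ccr1 at -74 to -65 and in 1 of 3 Ccrl2 windows at -56 to -47. TATAAA was found in the Ccl9 window and in 13.6% of all windows. The shorter letters GGGAN, which overlap the consensus, were in each of the 8 windows of these genes and in 95.3% of all windows. TGACTCA was in no window of these genes and in 5.20% of all windows. A match describes letters only, and binding was not measured.

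Ccl2 and Ccl7, the monocyte chemoattractants 1 and 3 that bind Ccr2, gave values that turned with the source of the data. The log2 level of Ccl2 was 13.25 and 11.30 in papilloma skin, 11.31 and 11.28 in tumor skin, 10.78, 10.53 and 11.41 in papilloma, and 11.99 and 12.12 in tumor. Papilloma skin 1 was the highest of the 9 columns, the other skin columns lay within the range of the lesion columns, and tumor lay above papilloma. Ccl2 was not called in papilloma, at -1.37 (SE 0.50, adjusted p = 0.161), or in tumor, at 0.76 (SE 0.54, adjusted p = 0.414). The difference between those lesion effects was 2.13 (SE 0.74, adjusted p = 0.258), and -0.09 (SE 0.67) from the scanner files. Without papilloma skin 1 and tumor 1 the value in papilloma was -0.40, without papilloma skin 2 it was -2.34 and was called, and from the scanner files it was 0.93, or 0.16 on the 6 arrays. Its adjusted p in papilloma ran from 0.0147 to 0.985 over the 22 alternatives. In the scanner files papilloma skin 1 was the lowest of the 9 arrays for Ccl2, at 9.21.

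Ccl7 had a log2 level of 11.46 in papilloma skin 1 and of 7.57 to 9.33 in the other 8 columns. Its values were -1.10 (SE 0.76) in papilloma and 0.24 (SE 0.84) in tumor, and neither was called. Without the columns papilloma skin 1 and tumor 1 the value in papilloma was 0.29, and from the scanner files, where papilloma skin 1 stood at 4.60, it was 2.98 (SE 0.93, adjusted p = 0.0608), or 1.25 on the 6 arrays. In tumor Ccl7 had 1.11 (SE 1.01) from the scanner files, but -0.88 on the 6 arrays and -0.17 with slide as a random block. No direction can be given for Ccl2 in papilloma, or for Ccl7 in either lesion. In tumor Ccl2 was called in none of the 22 alternatives, and its value turned to -0.26 on the 6 arrays.

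Ccl5, also known as RANTES, attracts T cells, monocytes and eosinophils. It had log2 levels of 10.08 and 8.35 in papilloma skin, 8.09 and 9.72 in tumor skin, 8.98, 7.44 and 8.79 in papilloma, and 8.41 and 8.69 in tumor. The 4 groups overlapped, with an SD of 1.22 in papilloma skin (n = 2), 1.15 in tumor skin (n = 2), 0.84 in papilloma (n = 3) and 0.19 in tumor (n = 2). The log2 fold changes were -0.81 (SE 0.67) in papilloma and -0.36 (SE 0.73) in tumor, and neither was called. Leaving out papilloma skin 1 and tumor 1 gave 0.05 in papilloma, and the scanner files gave 1.92 (SE 0.67, adjusted p = 0.0769). In tumor the scanner files gave -1.60 (SE 0.73, adjusted p = 0.343), and -2.47 on the 6 arrays with spike-in slopes of 1.04 to 1.06, not called. The value table turned there to 0.46 (SE 0.65, not called) with slide as a term, and its difference on slide 1 by label was 0.32. Ccl22, a ligand of Ccr4 that attracts T cells, ranged from 4.67 to 5.71 over the 9 columns, with log2 fold changes of -0.11 (SE 0.26) and 0.14 (SE 0.28), and is under the level minimum.

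Ccr1 is the receptor that binds Ccl3, Ccl5, Ccl6, Ccl7 and Ccl9. Its log2 level was 8.90 and 9.10 in papilloma skin, 9.21 and 8.98 in tumor skin, 9.35, 9.80 and 9.49 in papilloma, and 9.78 and 9.59 in tumor. Every lesion column lay above every skin column, and papilloma and tumor overlapped. The log2 fold changes were 0.55 (SE 0.17, adjusted p = 0.115) in papilloma and 0.59 (SE 0.19, adjusted p = 0.0906) in tumor, and neither was called. With all lesions against all skin the value was 0.57 (SE 0.13, adjusted p = 0.0219), under the fold minimum. Ccr1 was called from the scanner files in papilloma, at 2.15 (SE 0.56, adjusted p = 0.0422), where papilloma skin 1 stood at 6.38 and papilloma skin 2 at 8.31, and had a value of 0.05 in tumor. That call was lost with slide as a term on the scanner files, at 2.10 (adjusted p = 0.433), and on the 6 arrays, which leave out papilloma skin 1, the value was 0.35 (SE 0.53). Its adjusted p ran from 0.0351 to 0.935 in papilloma over the 22 alternatives. By slide label the value table gave 0.46 and 0.70 for papilloma and 0.57 for tumor, and the scanner files gave 3.29, 0.69 and 0.04.

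Ccrl2 is an atypical receptor that does not signal to G proteins and that binds chemerin, the product of Rarres2. Its log2 level was 14.01 and 14.47 in papilloma skin, 14.51 and 14.42 in tumor skin, 15.27, 15.63 and 15.14 in papilloma, and 14.99 and 14.93 in tumor. Every lesion column lay above every skin column, and papilloma lay above tumor in the value table. Ccrl2 rose in papilloma by 1.11 (SE 0.19, adjusted p = 0.0142), a fold of 2.16, and had a value of 0.50 (SE 0.21, adjusted p = 0.177) in tumor. The effect in tumor minus that in papilloma was -0.61 (SE 0.29, adjusted p = 0.371), so the lesion effects were not shown to differ, and the scanner files gave -0.09 (SE 0.57).

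Ccrl2 was close to the thresholds in papilloma. Without papilloma skin 1 its value was 0.88 and without papilloma 2 it was 0.96, and it was not called in either case. A block of replicate numbers gave 1.21 (adjusted p = 0.073), not called. The scanner files gave 1.32 (SE 0.38, adjusted p = 0.0533) after quantile normalization and ComBat, not called, and called Ccrl2 with the normexp background correction, at 1.31. In tumor they gave 1.23 (SE 0.42, adjusted p = 0.235), with a mean level of 15.45 in tumor and 15.22 in papilloma, so the order of the lesions turned with the source. On the 6 arrays they gave 0.77 (SE 0.40) in papilloma and 0.57 (SE 0.49) in tumor. Its adjusted p ran from 0.011 to 0.562 in papilloma over the 22 alternatives. By slide label the differences were 1.26 and 1.17 for papilloma and 0.48 for tumor, and 1.76, 0.69 and 1.51 from the scanner files.

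Without the columns papilloma skin 1 and tumor 1, 4 of the 10 genes were called in papilloma (Ccl3, Ccl4, Ccl6 and Ccl9), beside 1.83% of all probes, and 3 in tumor (Ccl3, Ccl4 and Ccl6), beside 3.16%. The same genes were called with a block of replicate numbers, 4 in papilloma beside 0.991% of all probes and 3 in tumor beside 1.32%. In tumor 2 were called, Ccl3 and Ccl4, without tumor 2, beside 1.44% of all probes, and with slide as a term, beside 0.375%. From the scanner files with quantile normalization and ComBat, 4 of the 10 were called in papilloma (Ccl3, Ccl4, Ccl6 and Ccr1), beside 7.19% of 55155 probes in either direction. With slide as a term on the same files, which counts the degrees of freedom spent on slides, each of these calls was lost, as was every other call on the array (0.00%). In tumor the version with quantile normalization and ComBat gave 0 called by limma, beside 0.221% of probes, while 4 of the 10 genes had an unadjusted p under 0.05, beside 15.6% of probes. With normexp, and ComBat as before, the scanner files called 5 in papilloma (Ccl3, Ccl4, Ccl6, Ccr1 and Ccrl2), beside 7.97% of probes, and 3 in tumor (Ccl3, Ccl4 and Ccl6), beside 1.31%. The median of all probes in the scanner files was 0.10 on the log2 scale in papilloma, and the 10 genes had a median of 1.62 there.

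**Figure D3:**
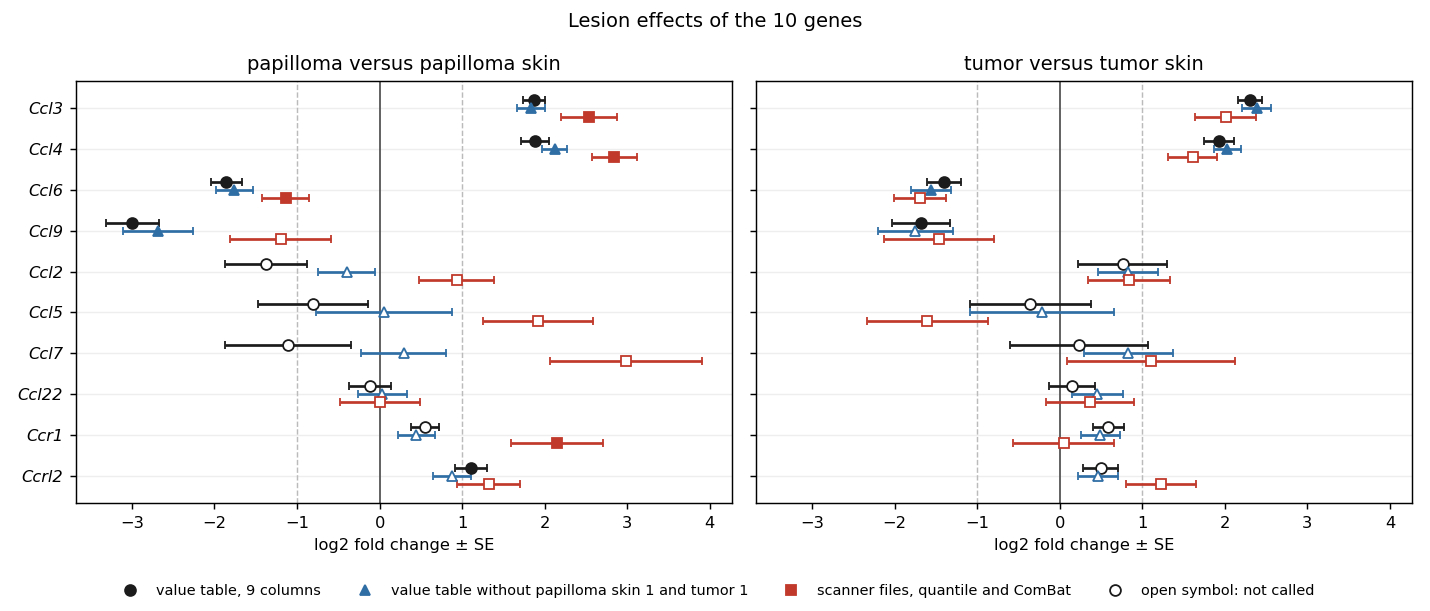
Log2 fold change ± SE (horizontal axis) of each of the 10 genes (vertical axis) in papilloma against papilloma skin (left) and tumor against tumor skin (right), with circles for the value table, triangles for the table without papilloma skin 1 and tumor 1, squares for the scanner files, and open symbols where not called. Ccl3 and Ccl4 lie above 1 and Ccl6 and Ccl9 under -1 in each of the 3 sets, while Ccl7 in papilloma runs from -1.10 to 2.98.

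The next question was whether tumor and papilloma neutrophils, or those of the surrounding skins, differ in these genes. None of the 10 genes was called between tumor and papilloma by limma, beside 0.447% of all probes, and 2 of the 10 had an unadjusted p under 0.05, beside 14.4% of all probes. They were Ccl4, at -0.73 (SE 0.17, adjusted p = 0.121), and Ccl2, at 1.15 (SE 0.50, adjusted p = 0.344). By slide label the difference of Ccl4 was -0.81 on slide 1 and -0.59 on slide 2, and -0.93 and -0.88 from the scanner files. The scanner files gave values of -0.91 for Ccl4 and 1.47 for Ccl2, where limma called 0.00% of probes and 20.7% had an unadjusted p under 0.05.

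Between the skins, none of the 10 genes was called by limma, beside 0.260% of all probes, and 4 had an unadjusted p under 0.05, beside 22.7% of all probes. Those 4 had negative values, tumor skin minus papilloma skin, Ccl9 at -1.70 (SE 0.35, adjusted p = 0.0653), Ccl4 at -0.78 (SE 0.18, adjusted p = 0.0809), Ccl3 at -0.52 (SE 0.14, adjusted p = 0.108) and Ccl7 at -2.12 (SE 0.84, adjusted p = 0.188). Without the columns papilloma skin 1 and tumor 1, where limma called 0.00% of probes, they were -1.38, -0.54, -0.55 and -0.73, and Ccl7 no longer had an unadjusted p under 0.05. Ccl7 moved most with 1 array, to -3.52 without papilloma skin 2, where Ccl4 had -1.02. Ccl2, at -0.98 in the full table, had -0.01 without papilloma skin 1 and -1.96 without papilloma skin 2. From the scanner files the same 4 genes had positive values, 0.35, 0.33, 0.35 and 2.29. On the 6 arrays with spike-in slopes of 1.04 to 1.06 the scanner files gave -0.59, -0.40, -0.58 and 1.20 in the same order, and none of the 4 was called by limma or had an unadjusted p under 0.05. Other genes had an unadjusted p under 0.05 in the scanner files, where it held for 22.3% of probes and limma called 0.00%. They were Ccl5 at 2.89 (SE 0.73, adjusted p = 0.167), Ccl2 at 1.56 (SE 0.50, adjusted p = 0.168) and Ccr1 at 1.86 (SE 0.61, adjusted p = 0.171), all positive and not called, beside -0.31, -0.98 and 0.10 in the value table. On the 6 arrays they were 3.01 (SE 0.38, adjusted p = 0.203), 1.26 (SE 0.54) and -0.08 (SE 0.65), none called. For Ccl5 the sign in the value table turned with 1 array, to 0.55 (SE 0.78) without papilloma skin 1 and -1.17 (SE 0.78) without papilloma skin 2.

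For the difference of the lesion effects, none of the 10 was called by limma, beside 0.0269% of all probes, and 2 of the 10 genes, Ccl2 and Ccl9, had an unadjusted p under 0.05, beside 14.7% of all probes. Without the columns papilloma skin 1 and tumor 1 neither did, with Ccl2 at 1.22 (SE 0.50) beside 2.13 and Ccl9 at 0.93 (SE 0.62) beside 1.31, and limma called 0.00% of probes. Without papilloma skin 2 Ccl2 had 3.105 (SE 0.42, adjusted p = 0.140), not called. In the scanner files, where limma called 0.00% of probes and 32.7% had an unadjusted p under 0.05, Ccl2 and Ccl9 had the other sign, and 3 other genes had an unadjusted p under 0.05. They were Ccl4 at -1.24 (SE 0.40), Ccl5 at -3.52 (SE 0.99) and Ccr1 at -2.10 (SE 0.83), where the value table gave 0.05, 0.45 and 0.04. On the 6 arrays Ccl4 had -0.43, Ccl5 -2.97 (SE 0.49, adjusted p = 0.300) and Ccr1 0.20. There Ccl7 too had an unadjusted p under 0.05, at -2.12 (SE 0.64, adjusted p = 0.486), beside 1.34 (SE 1.13) in the value table.

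The other genes of the family were counted in lists by role. For these lists and the marker lists further on, the shares of all probes called were 2.18% higher and 1.00% lower in papilloma. In tumor they were 2.71% and 1.51%, and with the lesions joined 2.29% and 1.33%. Unadjusted p was under 0.05 for 20.7% of all probes in papilloma and 26.9% in tumor. Of 15 other CC chemokine genes, 12 had probes, 20 in all, and 1 rose in papilloma, Ccl17, a ligand of Ccr4, by 1.06 (SE 0.17, adjusted p = 0.010). In tumor it had a value of 0.92, under the fold minimum, and none of the 20 probes was called by limma there, with an unadjusted p under 0.05 for 4. The median log2 fold change of these probes was 0.10 in papilloma and -0.15 in tumor. Of 17 probes of 13 other CC and atypical receptor genes, 1 fell in both lesions, that of Ccr3, the eotaxin receptor of eosinophils, with log2 fold changes of -2.29 in papilloma (SE 0.16) and -2.03 in tumor (SE 0.18). Ccr2, the receptor of Ccl2 and Ccl7, had -2.28 and -2.01, not called, and fell by 2.14 with the lesions joined. The median of the 17 probes was 0.03 in papilloma and 0.20 in tumor. None of the 3 probes of the chemerin axis was called by limma in either lesion or had an unadjusted p under 0.05, and Rarres2, which encodes the ligand of Ccrl2, had a mean log2 level of 9.27 and values of -0.31 (SE 0.48) and -1.002 (SE 0.53).

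Early inflammatory cytokines and feedback genes of NF-kappaB made a list of 20 genes with 26 probes, each well above background on 9 of 9 arrays. In papilloma 4 probes rose, beside 2.18% of all probes, and none fell. They were those of Il1a by 3.21, Ier3 by 1.99, Il6 by 1.57 and Zfp36 by 1.03. In tumor 5 probes rose, beside 2.71% of all probes, and none fell. The 5 were those of Il1a by 3.34, Ier3 by 3.12, Ptgs2 by 1.75, Il6 by 1.44 and 1 of 2 of Tnip1 by 1.04. With the lesions joined Tnf rose too, by 1.01. The median was 0.29 in papilloma and 0.50 in tumor, where the median of all probes was -0.01 and -0.02. Il1a encodes interleukin 1-alpha and Ptgs2 a cyclooxygenase.

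Genes that act after a chemokine receptor made a list of 16 genes with 23 probes. In papilloma 2 probes rose, beside 2.18% of all probes. They were Rgs16 by 1.92 and Rgs1 by 1.64, which encode proteins that shorten G protein signals. Another 2 fell, beside 1.00% of all probes, Rgs18 at -1.29 and the stronger probe of Grk6 at -1.21, with -0.05 on its weaker probe. In tumor Rgs16 rose by 2.72 and Rgs1 by 2.19, beside 2.71% of all probes, and 5 probes fell, beside 1.51%. Among them were Adrbk1 at -1.80, the stronger probe of Grk6 at -1.69 (-0.05 on the weaker), Rgs18 at -1.20 and Rgs19 at -1.05. Other probes of Rgs19 had -0.94 and -0.62, not called. Grk6 and Adrbk1 encode kinases that act on active receptors. The median of the list was -0.26 in papilloma and -0.12 in tumor.

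Genes whose pattern over the columns was most like that of Ccl3 or Ccr1 were named by Pearson r over the 9 columns among 6768 probes with enough level and range. The columns share their groups, so r describes likeness only and says nothing of shared function. Most like Ccl3 were Hic1 (r = 0.997), Csf1 (r = 0.996), Ralgds (r = 0.995), Fbxo42 (r = 0.995) and Smad7 (r = 0.995). Each was called higher in both lesions, which is no separate result, since they were picked for likeness to Ccl3. Hic1 rose by 2.67 and 3.14 and Csf1, which encodes a growth factor of macrophages, by 2.07 and 2.54. Most like Ccr1 were Atp7a (r = 0.985), Baz1a (r = 0.983), Nedd9 (r = 0.983), Atf2 (r = 0.982) and Ptp4a1 (r = 0.980). Of these, Nedd9 was called in papilloma, at 1.25.

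Markers within the neutrophil list also moved with the chemokines. Of its 15 probes, 5 fell in papilloma, beside 1.00% of all probes, and 7 in tumor, beside 1.51%, and none rose. The granule gene Camp fell on both its probes, at -4.12 and -4.14 in papilloma and at -3.88 and -3.57 in tumor. The granule genes Ngp, at -3.27 and -3.39, Ltf, at -2.46 and -2.31, and Mmp8, at -1.95 and -1.92, fell in both lesions. Ly6g had a value of -1.08 in papilloma (adjusted p = 0.078) and fell by 2.09 in tumor. Lcn2 had a value of -0.15 in papilloma and fell by 1.46 in tumor. The part of these values in the falls of Ccl6 and Ccl9 was not tested.

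Some markers of eosinophils and macrophages fell with Ccl6 and Ccl9 as well. Of 7 probes of 6 eosinophil genes, 3 fell in papilloma, beside 1.00% of all probes, Ear2 at -3.87, Ear1 at -3.43 and Il5ra at -1.95. The same 3 fell in tumor, beside 1.51% of all probes, at -3.29, -2.89 and -1.64. In tumor both probes of Siglec5 rose, by 1.38 and 1.59, and 1 of them gave the strongest signal of the list. Siglec5 encodes Siglec F, a surface protein of eosinophils that is also known from neutrophils in tumors. Epx, which encodes the peroxidase of eosinophils, had a mean log2 level of 5.48 and was well above background on 3 arrays, the same 3 that had a low spike-in slope. The log2 of the summed eosinophil level was 14.00 and 13.60 in papilloma skin, 13.04 and 13.03 in tumor skin, 11.80, 12.20 and 12.20 in papilloma, and 13.18 and 13.01 in tumor. The 2 probes of Siglec5 alone had a log2 sum of 13.0026 and 12.89 in tumor, and so made up most of that level there. The other 5 probes had 13.60 and 13.12 in papilloma skin, 12.23 and 12.52 in tumor skin, 9.98, 9.45 and 10.33 in papilloma, and 10.05 and 9.29 in tumor, so that each lesion column lay under each skin column. Of 16 probes of 12 monocyte and macrophage genes, 2 fell in each lesion, beside 1.00% of all probes in papilloma and 1.51% in tumor. Both were of Adgre1, at -2.94 and -3.09 in papilloma and at -2.17 and -2.04 in tumor. With the lesions joined Fcgr1 and Cx3cr1 also fell, at -1.39 and -1.21. Some members of this list went the other way in papilloma, not called but with an unadjusted p under 0.05. They were C1qc at 1.03, C1qa at 0.92, Cd163 at 0.62 and C1qb at 0.50, and had -0.11, 0.59, -0.33 and -0.32 in tumor. The summed level of these monocyte and macrophage probes was 15.64 and 15.53, 15.36 and 15.19, 14.84, 14.96 and 15.05, and 15.16 and 14.84 in the same order, and the strongest probe signal was of Csf1r. The part of these cells in the result for Ccl6 and Ccl9 was not tested.

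Some markers of skin cells were higher where Ccl3 and Ccl4 were higher. Of 15 keratinocyte probes (7 genes, strongest probe Krt5), 2 rose in papilloma, beside 2.18% of all probes, and 3 in tumor, beside 2.71%. Krt6b rose by 4.88 and 3.29 in papilloma and by 7.23 and 3.83 in tumor, where Krt14 rose by 3.29. With the lesions joined the weaker of 2 probes of Krt5 rose as well, by 1.09. Some probes of the list went the other way and were not called. The strongest of Trp63, at a mean log2 level of 12.07, had -0.47 in papilloma and -0.39 in tumor. With the lesions joined it had -0.43 (adjusted p = 0.0177 by limma), under the fold minimum. A Dsg3 probe at a mean level of 5.71 had 0.19 and -0.93. The log2 summed level of the keratinocyte probes was 13.85 and 13.28 in papilloma skin, 13.04 and 13.95 in tumor skin, 15.33, 14.29 and 14.17 in papilloma, and 14.32 and 15.98 in tumor. For 6 fibroblast probes (6 genes, strongest probe Col1a2) it was 14.64 and 13.56, 12.95 and 13.08, 15.52, 15.04 and 15.15, and 12.27 and 13.81, in the same order. None of them was called in papilloma by limma, where 3 had an unadjusted p under 0.05, and Dcn fell by 1.38 in tumor. Col1a1 had values of 1.88 and 1.86 and Col3a1 of 1.28 and 1.28 in papilloma and tumor, and both rose with the lesions joined, by 1.87 and 1.28. For 6 endothelial probes (5 genes, strongest probe Kdr) it was 12.71 and 12.75, 13.12 and 14.01, 13.44, 12.64 and 12.90, and 12.38 and 12.48. Of these probes 4 were higher in papilloma, beside 2.18% of all probes, those of Cdh5 by 2.57, Kdr by 2.26, Emcn by 1.85 and Pecam1 by 1.45. In tumor 1 was higher, beside 2.71% of all probes, that of Cdh5 by 2.39. The Kdr probe that rose had a mean log2 level of 7.56, while the strongest one, also of Kdr and at 12.70, had -0.03 in papilloma and -1.30 in tumor, not called. The part of these cells in the rise of Ccl3, Ccl4 and Ccrl2 was not tested.

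Markers of other leukocytes were counted as well, and their part in the results was not tested. Of 14 probes of 9 genes of dendritic and Langerhans cells (strongest probe Cd74), none was called in papilloma by limma, where 1 had an unadjusted p under 0.05, and 2 fell in tumor, Cd74 at -2.47 and 1 of 2 probes of H2-Ab1 at -2.33. Their log2 summed level was 15.55 and 14.69, 14.19 and 15.01, 15.10, 14.00 and 15.35, and 12.54 and 12.71. Of 17 probes of 12 T and NK cell genes (strongest probe Cd4), 1 fell in papilloma, Nkg7 at -2.14 on the weaker of its 2 probes (-0.27 on the other), and in tumor Gzmb rose by 1.33 and Cd3d fell by 1.41. Their summed level was 13.77 and 13.65, 13.60 and 13.87, 13.51, 13.11 and 13.28, and 13.16 and 13.12. Of 7 probes of 6 mast cell genes (strongest probe Kit), none was called in either lesion by limma, with an unadjusted p under 0.05 for 1 in each, and Ms4a2 was well above background on none of the 9 arrays. Their summed level was 10.53 and 10.998, 11.30 and 11.59, 11.14, 11.08 and 10.55, and 10.88 and 10.93.

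**Figure D4:**
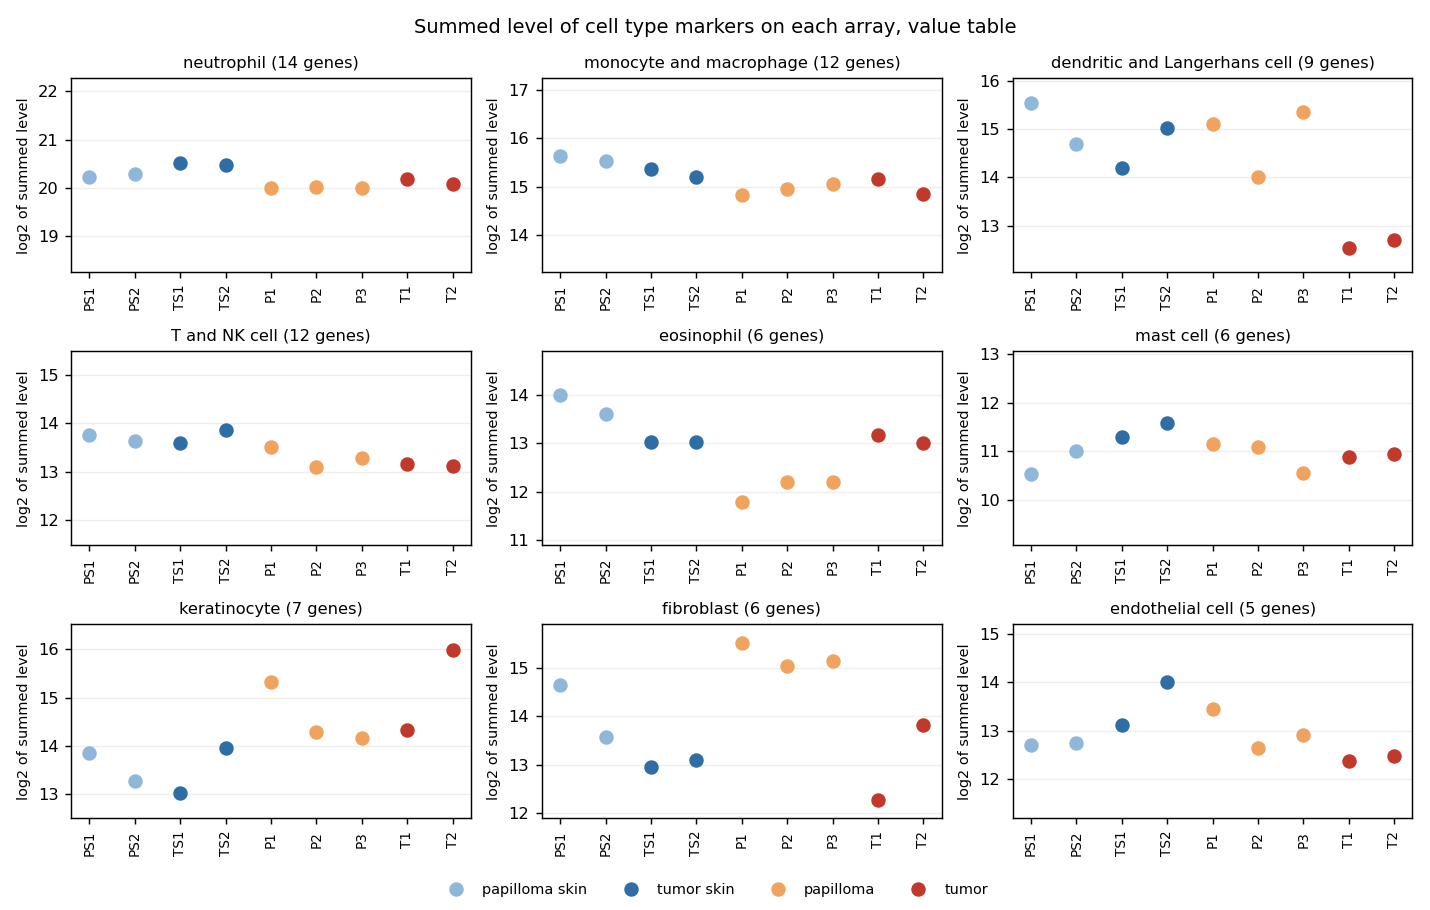
Log2 of the summed level (vertical axis) of the marker genes of 9 cell types on each of the 9 arrays (horizontal axis, labelled as in the plot of levels), from the value table and coloured by group. Neutrophil markers lie between 20.00 and 20.52, and eosinophil markers run from 11.80 in papilloma 1 to 14.00 in papilloma skin 1.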

How the data were processed

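The deposited value table gives log2 intensity, and its values were used as the authors deposited them. Their notes name limma for quantile scaling and ComBat for the chips, and do not say which steps the deposited columns hold. If the columns hold the ComBat step, fits to the table without a slide term do not count the degrees of freedom spent on slides. limma 3.58.1 in R 4.3.3 was fitted by group to all probes of the table, and p-values were adjusted by Benjamini-Hochberg over all of them. A probe was called at an adjusted p of 0.05 or less, a log2 fold change of 1 or more in size and an average log2 level of 6 or more. The scanner files were quantile normalized over the 55155 probes found in both sources and corrected by a ComBat step written for this work (sva was not used), and that fit does not count the degrees of freedom spent on slides. All 10 members are named. From each related list and marker list, genes called in either lesion are named, at most 6 by mean lesion effect, and from the likeness ranking 5 genes each for Ccl3 and Ccr1. 1 gene of the receptor list is not reported here. Members and lists were chosen with earlier results of these data known. The code was tested on simulated data. Python 3.11.15, pandas 2.3.3, numpy 2.4.6, Biopython 1.88 and matplotlib 3.10.9 were used.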

Additional observations from a re-analysis of the deposited data

How the results depend on the processing

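Over 22 alternatives, left-out arrays included, Ccl3, Ccl4, Ccl6, Ccl9 and Ccrl2 kept their sign in both lesion comparisons. In papilloma their log2 fold changes ran from 1.77 to 3.68, 1.64 to 3.95, -1.99 to -0.18, -3.31 to -0.44 and 0.77 to 2.53. Of 440 values of the 10 genes, 336 kept direction and side of the threshold, 56 lost the call, 3 gained it and 45 changed sign. From the scanner files, limma called 0 of the 10 genes in papilloma, tumor and all lesions with slide as a term, with no slide correction, with 75th percentile scaling and on the 6 arrays whose spike-in slope was full, and in these settings no probe of the array was called. On those 6 arrays the values in papilloma and tumor were 1.77 and 2.42 for Ccl3, 2.34 and 1.91 for Ccl4, -1.78 and -1.53 for Ccl6 and -2.65 and -2.55 for Ccl9. In tumor 0 of the 10 were called after ComBat, beside 0.221% of probes. In tumor 2 were called with slide as a term on the value table, beside 0.375% of all probes. With normexp the scanner files gave 5, 3 and 3 in papilloma, tumor and all lesions, beside 4396, 722 and 1545 of 55155 probes. A block of replicate numbers gave 4 in papilloma, without Ccrl2, and 3 in tumor, without Ccl9. The other 3 comparisons gave 0 throughout, and from the scanner files with quantile normalization and ComBat no probe of the array was called in them. With normexp, 17 of 55155 probes were called between tumor and papilloma and 1 between the skins. Signs changed as follows. In papilloma, the scanner files with ComBat, slide as a term, no slide correction, 75th percentile, normexp and 6 arrays gave 0.93, 0.91, 1.08, 1.45, 0.86 and 0.16 for Ccl2, 1.92, 1.91, 2.18, 1.498, 0.95 and 0.51 for Ccl5, and 2.98, 2.99, 3.11, 2.50, 1.66 and 1.25 for Ccl7. Without the columns papilloma skin 1 and tumor 1, Ccl5 had 0.0533, Ccl7 0.29 and Ccl22 0.0345. Ccl22 had 0.00226 (ComBat), 0.44 (no slide correction), 0.14 (normexp) and 0.70 (6 arrays), and 0.0262 on the value table with slide as a term and 0.0311 with the block of replicate numbers. In tumor, the 6 arrays gave -0.26 for Ccl2, -0.88 for Ccl7 and -0.15 for Ccl22. Ccl22 had -0.33 with no slide correction, -0.60 with the 75th percentile and -0.13 with slide as a term on the value table. Ccl5 had 0.46 with slide as a term, Ccl7 -0.17 with slide as a random block, and Ccr1 -0.0162 (scanner files, slide as a term) and -0.0439 (normexp). With an array left out, papilloma values ran from -1.67 to 0.0533 for Ccl5, -2.50 to 0.29 for Ccl7 and -0.31 to 0.03 for Ccl22, and tumor values from -1.17 to 0.46, -0.36 to 0.83 and -0.17 to 0.46. The cause was not tested. Where a group keeps 1 array, that array is assumed to vary like the other groups. With 2 or 3 arrays a group small effects can be missed, and signal near background limits Ccl22.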
